A study of Arabidopsis thaliana with 20 samples.

Results

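The values described here compare floral tissue collected on day 4 with tissue collected on day 3 after flowers had been started together on Arabidopsis thaliana inflorescences. They come from the 4 of 20 arrays in the series that carried day 4 and day 3 RNA, 1 array for each of 4 independently collected tissue sets, and all 28633 features with enough values were considered. All plants, of day 4 and of day 3 alike, were 35S:AP1-GR ap1 cal plants treated with 1 µM dexamethasone just after bolting, so every group carried the same mutations, transgene and treatment. The AP1-GR fusion is driven by the 35S promoter, which is active in most tissues, and is held inactive until dexamethasone binds its receptor part. For every time point, tissue of about 25 plants was pooled, taken close to the inflorescence surface to enrich meristematic cells. No untreated plants were set beside day 4 or day 3, so a change over this interval is a change with time.

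AP1 and CAL are MADS-box transcription factors that commit a young meristem to flower formation. Without both, inflorescences pile up meristems that do not proceed to flowers, and restoring AP1 activity lets many of them begin a flower at the same time. In a developing Arabidopsis flower the sepals arise first, followed by petals, stamens and carpels, and organ patterning is followed by the differentiation of epidermal, sporogenous and stylar cells. The RNA came from whole pieces of tissue, so fewer cells of a type and less RNA per cell cannot be told apart.

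Each value is a log10 ratio of day 4 over day 3, so that 0.3 is close to a doubling. The day 4 RNA carried Cy5 in sets 2 and 4 and Cy3 in sets 1 and 3, and the deposited ratios of sets 1 and 3 were turned accordingly. The deposited ratios were read as Cy5 over Cy3, which is likely but not stated. If the channels were the other way round, every rise given below would be a fall. On the 4 arrays, between 30156 and 30178 of 30194 probes had a value, with interquartile ranges of 0.0986 to 0.162 and with set 3 the narrowest. Between 567 and 692 probes stood at the upper limit of the scale, at 100-fold, and 4 to 10 at the lower one.

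Dye and day had to be separated before any gene could be read. Across features, turned arrays of opposite dye assignment correlated between -0.635 and -0.56, and arrays of the same assignment at 0.621 and 0.69. After each feature's mean deposited ratio over the 20 arrays was subtracted, the opposite pairs correlated between 0.125 and 0.219 and the same-dye pairs at -0.015 and 0.017. The fit therefore carried a dye coefficient, which itself passed the test for 8270 features (28.9%). Features are not independent replicates, and these correlations describe the arrays only.

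Between day 3 and day 4, 281 features rose and 106 fell at an adjusted p under 0.05 in limma, which is 1.35% of features tested, 0.981% of them higher and 0.370% lower on day 4. Features with 1 gene name made up 192 of the 387, which is 1.12% of such features tested, with 149 higher (0.867%) and 43 lower (0.250%) on day 4. The other 195 carry no gene name here. The changes were modest: the median fold of the calls was 1.84 for rises and 1.67 for falls, and 117 rises and 23 falls reached 2-fold. Of the 387 called features, 381 had the same sign in all 4 sets, against 4682 of all features tested (16.4%). In 386 the mean of the Cy3-labelled day 4 sets and the mean of the Cy5-labelled day 4 sets had the same sign. The calls were made from these same values, so such agreement follows in part from the test and is no separate support. Across all features the median change was 0.0.

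Many calls depended on single sets, least on set 3. Leaving out set 1, 2, 3 and 4 left 114, 129, 337 and 108 calls, in fits that also had fewer arrays of every interval. Keeping the set as a replicate block left 228, and a variance prior with a trend and robust fitting left 79. No scanner intensity was used, so the trend of that prior rested on the ratios themselves and not on probe brightness. Whether large ratios by themselves made calls harder to keep under that prior was not tested. Of the 45 genes named by rule, 15 stayed called with any 1 set left out, 39 with the replicate block and 9 with the trend and robust prior. Those 9 were AT4G05240, AT5G06560, AT3G56220, AT1G48660, UGT76E11, TBL15, YUC6, AT5MAT and UGT71C3, and the calls of the other 36 were lost under that prior.

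**Figure D1:**
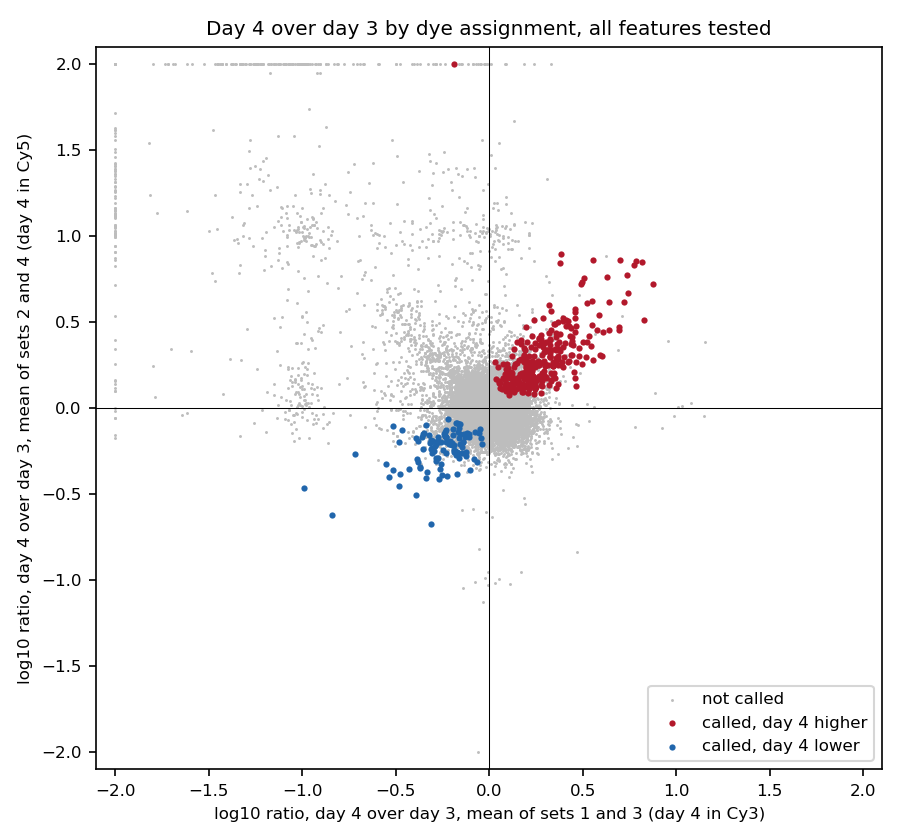
Each point is 1 of the features tested, with the mean log10 ratio of day 4 over day 3 in sets 1 and 3 (day 4 in Cy3) on the horizontal axis and that in sets 2 and 4 (day 4 in Cy5) on the vertical axis. Grey points did not pass the test, and many of them lie at upper left, where the sign follows the dye. Red points (281, day 4 higher) and blue points (106, day 4 lower) passed it, and all but 1 of these 387 have the same sign on both axes. The test itself favours features with such agreement.

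Annotated anthocyanin genes that rose were DFR, among the 18 largest named rises, and AT5MAT. DFR (AT5G42800), dihydroflavonol 4-reductase, which opens the anthocyanin branch of flavonoid synthesis, had log10 ratios of day 4 over day 3 of 0.685, 0.677, 0.573 and 0.844 in sets 1 to 4. AT5MAT (AT3G29590), which attaches malonyl groups to anthocyanins, had ratios of 0.457, 0.459, 0.329 and 0.589. Every set lay well above 0 for both genes. DFR rose 4.95-fold (0.695 ± 0.112, SD, n = 4, adjusted p = 0.000373) and AT5MAT 2.87-fold (0.458 ± 0.106, SD, n = 4, adjusted p = 0.00346). AT4G22870, a locus with no symbol that neighbours LDOX, the anthocyanidin synthase gene, had the largest named rise and, among the 18 largest, the closest sets. Its ratios were 0.847, 0.861, 0.784 and 0.837, a mean of 0.832, or 6.80-fold (adjusted p = 0.000367). AT4G22870 was placed in the flavonoid list by its locus, and the annotation used here gives it no role.

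The other measured genes of the flavonoid list did not pass the test. Of 7 measured members, 3 rose and none fell, where 0.981% of all features tested rose, and the median of the list was 0.0381. Without AT4G22870, which is in the list only by its locus, the rises were DFR and AT5MAT. BAN, the anthocyanidin reductase of seed-coat tannin synthesis, had a mean of 0.038 (adjusted p = 0.944), with set 3 at 0.443 and the other sets between -0.191 and -0.045. The flavonoid glycosyltransferases UGT78D1 and UGT78D2 had means of -0.034 (adjusted p = 0.964) and -0.149 (adjusted p = 0.349). UF3GT, annotated as a flavonoid glucosyltransferase, had a mean of 0.031 (adjusted p = 0.816). DFR and AT4G22870 kept their calls with any 1 set left out, at adjusted p values no higher than 0.0215 and 0.0176, and lost them with the trend and robust prior (0.0588 and 0.0935). AT5MAT lost its call without set 1, 2 or 4 (adjusted p = 0.0852, 0.0536 and 0.113).

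NGATHA genes encode B3-domain transcription factors that act together in the style and stigma at the top of the carpel and in the growth of lateral organs. NGA3 (AT1G01030) had log10 ratios of 0.396, 0.437, 0.484 and 0.389 in sets 1 to 4, NGA2 (AT3G61970) of 0.265, 0.245, 0.324 and 0.181, and NGA4 (AT4G01500) of 0.217, 0.179, 0.084 and 0.341. All 12 values were above 0. NGA3 rose 2.67-fold (0.427 ± 0.0438, SD, n = 4, adjusted p = 0.000218), NGA2 1.79-fold (adjusted p = 0.00761) and NGA4 1.61-fold (adjusted p = 0.0128). NGA1 (AT2G46870) had a mean of 0.043, its sets ran between -0.251 and 0.237, and it did not pass the test (adjusted p = 0.969). NGA3 stayed called with any 1 set left out but not with the trend and robust prior (adjusted p = 0.154). NGA2 lost its call without set 1, 2 or 4 (adjusted p = 0.0707, 0.134 and 0.111) and NGA4 without set 1 or 4 (0.225 and 0.171).

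The 3 NGATHA genes that rose had unlike histories before day 3. NGA2 had already risen in the day 2 over day 1 and day 3 over day 2 comparisons, at 0.434 and 0.383 (adjusted p = 0.000287 and 0.00077). NGA3 had a log10 ratio of 0.065 for day 2 over day 1 and 0.496 for day 3 over day 2 (adjusted p = 0.582 and 9.98e-05). NGA4 had 0.05 and 0.064 in those intervals, neither past the test. From day 4 to day 5 the ratios were -0.023 for NGA2, 0.241 for NGA3 and 0.19 for NGA4, with NGA3 and NGA4 called (adjusted p = 0.0238 and 0.0332). The intervals next to day 4 over day 3 share its day 3 or day 4 RNA, so these values stand side by side only. Of all features, 1.15% were called for day 2 over day 1, 0.419% for day 3 over day 2 and 0.758% for day 5 over day 4.

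REM genes, named for reproductive meristem, also encode B3-domain proteins. AT5G09780, which the annotation also names REM25, had log10 ratios of 0.453, 0.213, 0.188 and 0.66 and rose 2.39-fold (adjusted p = 0.00591). AT4G31620, also named REM36, had -0.303, -0.105, -0.247 and -0.282 and fell 1.71-fold (adjusted p = 0.00828). These genes of the same family moved in opposite directions, each with the same sign in every set. REM22 had a mean of 0.172 (adjusted p = 0.454), although it had risen for day 1 over day 0 by 0.608 (adjusted p = 0.000224). Over the 10 measured genes matched by name as REM or NGATHA, 4 rose and 1 fell, where 0.981% of all features rose and 0.370% fell, and the median was 0.164. This grouping was made after their values had been seen. In another family, matched as B3-domain factors, none of 7 measured genes was called. Their median was -0.0128, with means of -0.069 to 0.173. AT5G09780 lost its call without set 1 or 4 (adjusted p = 0.128 and 0.131), and so did AT4G31620 (0.127 and 0.185).

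Stomata are cell pairs of the epidermis whose lineage is taken forward by a series of bHLH transcription factors. MUTE (AT3G06120), which ends the asymmetric divisions of that lineage, had log10 ratios of 0.748, 0.44, 0.731 and 0.903. All 4 sets were high, and MUTE rose 5.08-fold (0.706 ± 0.193, SD, n = 4, adjusted p = 0.000424), a call kept with any 1 set left out and lost with the trend and robust prior (0.0588). FMA (AT3G24140, FAMA), which acts after MUTE at the last division, had ratios of 0.305, 0.12, 2.0 and 0.651. Its set 3 value stands at the limit of the scale, and FMA did not pass the test (adjusted p = 0.0578). STOMAGEN, a peptide that promotes stomata, had values of -2.0, 1.079, -1.638 and 2.0, whose sign followed the dye (adjusted p = 0.992). Of the 3 measured genes of the stomatal list, 1 rose and none fell, where 0.981% of all features rose.

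In the epidermis and cuticle list, RXF26 alone passed the test. RXF26 (AT1G58430) had log10 ratios of 0.373, 0.482, 0.379 and 1.202, all positive, with set 4 standing apart, and rose 4.06-fold (adjusted p = 0.0091). AT5G33370 had 0.147, 0.19, 0.309 and 0.962, also highest in set 4, and did not pass the test (adjusted p = 0.0604). SHN2 and SHN3, regulators of cuticle wax, and CR4, a receptor kinase of the epidermis, had means between -0.136 and 0.071, none called. Of 5 measured genes of the epidermis and cuticle list, 1 rose and none fell, where 0.981% of all features rose. The median of the list was 0.0714. RXF26 lost its call without set 1 or 2 (adjusted p = 0.14 and 0.0862).

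GIS (AT3G58070), a zinc-finger factor that promotes trichomes on inflorescence organs, had log10 ratios of -0.173, -0.199, -0.083 and -0.133. It fell 1.40-fold (adjusted p = 0.0128), and the call was lost with any 1 set left out (adjusted p up to 0.192) and with the replicate block (0.0533). TBL15 (AT2G37720), a TRICHOME BIREFRINGENCE-LIKE gene, had -0.612, -0.142, -0.419 and -0.071 and fell 2.04-fold (adjusted p = 0.0456). The falls were larger in both sets with day 4 in Cy3, and without the dye coefficient the call was lost (adjusted p = 0.129). Its call too was lost with any 1 set left out (adjusted p up to 0.366) and with the replicate block (0.0981).

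Auxin patterns organ primordia and later the carpel, and it is made, conjugated and transported by separate gene families. YUC6 (AT5G25620), a flavin monooxygenase of auxin synthesis, had log10 ratios of 0.461, 0.309, 0.25 and 0.274 and rose 2.11-fold (adjusted p = 0.00124). YUC2, YUC4 and YUC11, of the same family, had means of 0.026, -0.076 and 0.133, none called. GH3.3 (AT2G23170), which conjugates auxin to amino acids, had 0.177, 0.333, 0.125 and 0.431 and rose 1.85-fold (adjusted p = 0.000762). Both sets with day 4 in Cy5 were above both sets with day 4 in Cy3 for GH3.3, and without the dye coefficient its call was lost (adjusted p = 0.0542). WAG2 (AT3G14370), a protein kinase related to PINOID that acts on auxin transport, had -0.162, -0.25, -0.218 and -0.259 and fell 1.67-fold (adjusted p = 0.00923).

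The measured part of the auxin list stayed close to the centre of all features. Of 16 measured genes 2 rose and 1 fell, where 0.981% of all features rose and 0.370% fell, and the median was 0.0225. Of the AUX/IAA genes, early auxin-induced repressors, IAA31 came nearest to the threshold with a mean of -0.183 (adjusted p = 0.0634). IAA20 had ratios of -2.0, 2.0, -0.033 and 2.0 and cannot be read at these limits. GH3.3 kept its call with any 1 set left out but not with the trend and robust prior (adjusted p = 0.115). YUC6 lost it without set 2 (adjusted p = 0.0584), and WAG2 without set 1, 2 or 4 (0.0664, 0.135 and 0.16).

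RR16 (AT2G40670), also ARR16, is a type-A response regulator, a class that dampens cytokinin signalling and is itself induced by cytokinin. Its log10 ratios were 0.862, 0.419, 0.79 and 0.601, with set 2 lowest and every set above 0. RR16 rose 4.66-fold (0.668 ± 0.199, SD, n = 4, adjusted p = 0.00425). ARR15, another type-A regulator, had a mean of -0.087 (adjusted p = 0.868), and the type-B regulators RR18 and RR22 had means of 0.042 and 0.015. Of 4 measured cytokinin genes, 1 rose and none fell, where 0.981% of all features rose. RR16 lost its call without set 1 or 2 (adjusted p = 0.0852 and 0.0882).

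SPL (AT4G27330), SPOROCYTELESS, is needed to form the sporogenous cells of anthers and ovules. It had log10 ratios of 0.185, 0.082, 0.116 and 0.265 and rose 1.45-fold (adjusted p = 0.00709), a small but same-signed change. The call was lost without set 1, 3 or 4 (adjusted p = 0.177, 0.0556 and 0.131). Of the 6 measured stamen and anther genes, SPL alone passed the test, where 0.981% of all features rose. AMS and EMS1, which act in the tapetum, had means of 0.049 and -0.011, and ROXY1, a glutaredoxin of petal and anther development, had -0.16 (adjusted p = 0.0992). In the carpel and ovule list the 3 NGATHA rises were the only calls among 9 measured genes. SPT, a bHLH factor of the carpel margin, had a mean of -0.171 (adjusted p = 0.217), and INO, a YABBY factor of the outer ovule integument, had 0.067 (adjusted p = 0.542).

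Of the inflorescence genes measured 2 of 6 fell, and of the floral meristem and organ identity genes 1 of 4. Of all features tested, 0.370% fell. AGL71 (AT5G51870) and AGL72 (AT5G51860), neighbouring MADS-box genes that promote flowering, had log10 ratios of -0.242, -0.176, -0.344 and -0.321 and of -0.231, -0.243, -0.235 and -0.279. All 8 values were below 0. AGL71 fell 1.86-fold (adjusted p = 0.00715) and AGL72 1.77-fold (adjusted p = 0.0128). UFO (AT1G30950), an F-box protein of floral meristem and petal identity, had -0.098, -0.168, -0.198 and -0.29 and fell 1.54-fold (adjusted p = 0.0427), with an adjusted p of 0.0811 under the replicate block. None of these 3 calls held with every set left out in turn. AGL71 lost its call without set 1, 2 or 4 (adjusted p = 0.0748, 0.0598 and 0.131), AGL72 likewise (0.0664, 0.144 and 0.141) and UFO likewise (0.163, 0.303 and 0.435). AGL71 and AGL72 are close relatives, and whether their probes cross-hybridise was not tested. Both had negative means in every interval of the course. For day 1 over day 0 they had changed by -0.219 and -0.339 (adjusted p = 0.017 and 0.000639), where 2.17% of all features fell.

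No measured inflorescence or flowering-time gene rose, and all 6 means were negative, between -0.271 and -0.08. The list holds 21 names, of which only these 6 were measured. AGL24 (-0.193, adjusted p = 0.191), FD (-0.193, adjusted p = 0.0612), AGL42 (-0.141, adjusted p = 0.301) and AGL19 (-0.08, adjusted p = 0.538) did not pass the test. AGL24 and FD act in inflorescence identity and flowering time. Over the 62 measured genes matched by name as MADS-box factors, AGL71 and AGL72 were the only calls, where 0.370% of all features fell, and the median was -0.00247. PUCHI, an AP2/ERF factor of the early floral meristem, had ratios of -0.609, -0.198, -0.209 and -0.068 (adjusted p = 0.147). CLV3, the peptide of the stem-cell domain, had -0.206, -0.096, -0.124 and -0.42, a mean of -0.211 that did not pass the test (adjusted p = 0.143). None of the 4 meristem and boundary genes and none of the 8 organ growth and polarity genes was called. RBE, a petal factor, had a mean of -0.174 (adjusted p = 0.163) and JAG, which promotes organ growth, 0.049 (adjusted p = 0.855).

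**Figure D2:**
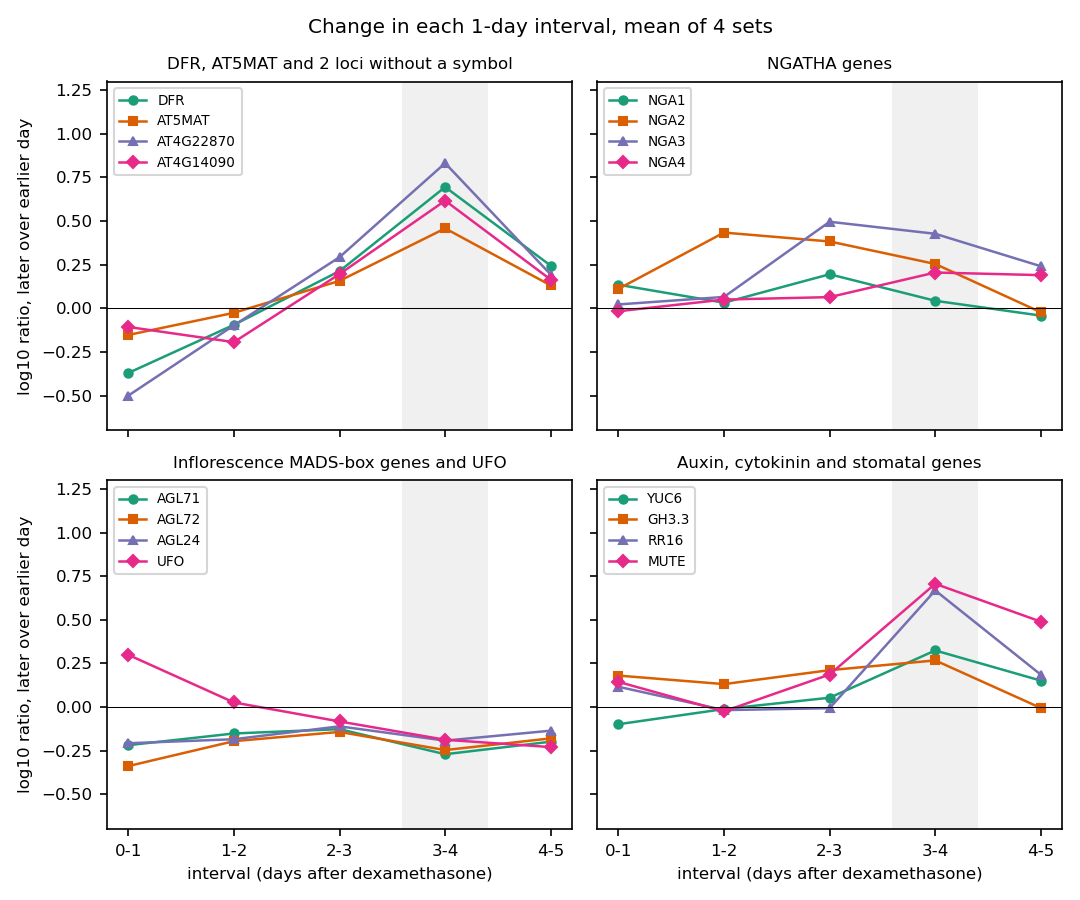
Mean log10 ratio of the later over the earlier day (n = 4 sets) for the 5 intervals from day 0 to day 5, in 4 panels of 4 genes, with day 4 over day 3 shaded. DFR, AT5MAT, AT4G22870 and AT4G14090 peak in the shaded interval, NGA2 and NGA3 were already up before it, UFO is at 0.299 in the first interval and below 0 in the last ones, and MUTE and RR16 stand at 0.706 and 0.668 in the shaded interval. NGA1 and AGL24 were not called for day 4 over day 3.

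Cell-wall and conjugating enzymes were called one by one. The families counted here hold only genes matched by symbol or synonym, so members without such a name are not counted. Of 21 expansins, proteins that loosen cell walls, only EXPA8 (AT2G40610) was called, with ratios of 0.384, 0.069, 0.294 and 0.313 and a 1.84-fold rise (adjusted p = 0.0222) lost with any 1 set left out (up to 0.299). Of 47 UDP-glycosyltransferases, which attach sugars to small molecules, 2 rose and 1 fell, where 0.981% of all features rose and 0.370% fell. UGT76E11 (AT3G46670) had 0.561, 0.295, 0.502 and 0.548, rose 2.99-fold (adjusted p = 0.000218) and stayed called with any 1 set left out. UGT85A5 (AT1G22370) rose 1.88-fold (adjusted p = 0.00326; lost without set 3 or 4, at 0.0673 and 0.117). UGT71C3 (AT1G07260) fell 1.64-fold (adjusted p = 0.00274; lost without set 2 or 4, at 0.0536 and 0.13). None of 20 cytochromes P450, 10 xyloglucan enzymes, 19 glycosyl hydrolases, 16 bZIP, 10 WRKY or 9 CLAVATA3/ESR peptide genes was called.

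Over all genes that carry a symbol, 21 rose and 12 fell of 1632 tested, or 2.02%, beside 1.35% of all features and 1.12% of features with 1 gene name. Those not yet described changed between 1.33-fold and 2.38-fold. The serine carboxypeptidase-like gene scpl35 (AT5G08260) rose 2.38-fold with ratios of 0.465, 0.165, 0.422 and 0.453, while scpl48 (AT3G45010) fell 1.33-fold (adjusted p = 0.00276 and 0.0466). SOL1 (AT3G22760) rose 2.17-fold with 0.14, 0.283, 0.449 and 0.476 (adjusted p = 0.00228). AZG1 (AT3G10960), a purine transporter, rose 1.75-fold (adjusted p = 0.0451), DRT100 (AT3G12610) 1.68-fold (adjusted p = 0.00688) and GSTU26 (AT1G17190), a glutathione S-transferase, 1.62-fold (adjusted p = 0.0109). CHR34 (AT2G21450), a chromatin remodelling gene, rose 1.53-fold (adjusted p = 0.0391) and HEME2 (AT2G40490), of tetrapyrrole synthesis, 1.33-fold (adjusted p = 0.0174).

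Among the falls, BAT1 (AT4G31910), an acyltransferase of brassinosteroids, fell 1.71-fold (adjusted p = 0.0082) and MYBC1 (AT2G40970), a MYB-like factor, 1.58-fold (adjusted p = 0.0313). JKD (AT5G03150), a zinc-finger factor known from root patterning, fell 1.39-fold (adjusted p = 0.0245), and IQD27 (AT1G51960), an IQ-domain gene, 1.86-fold (adjusted p = 0.00709). None of these symbol-bearing genes kept its call with every set left out in turn. The highest adjusted p with 1 set left out was 0.0655 for SOL1, 0.0761 for scpl35, 0.0871 for BAT1, 0.121 for DRT100, 0.158 for IQD27, 0.211 for GSTU26, 0.291 for JKD, 0.326 for AZG1, 0.332 for MYBC1, 0.334 for scpl48, 0.366 for HEME2 and 0.388 for CHR34. That set was set 4 for these genes other than CHR34 and MYBC1, where it was set 1. AZG1, MYBC1, scpl48 and BAT1 were lost with any 1 set left out, and DRT100, GSTU26, HEME2, JKD and CHR34 without set 1, 2 or 4. SOL1 and IQD27 were lost without set 2 or 4, and scpl35 without set 1 or 4. With the replicate block AZG1, CHR34, HEME2, scpl48 and JKD were lost (adjusted p = 0.106, 0.0762, 0.0624, 0.134 and 0.0811). Without the dye coefficient AZG1, CHR34, scpl48 and JKD were lost (0.0511, 0.0755, 0.0524 and 0.173). These genes were named after their values had been seen.

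Many of the largest changes fell on loci that carry no symbol, for which no role is given here. AT1G48660 had ratios of 0.495, 0.551, 0.424 and 0.5, the closest agreement after AT4G22870 among the 18 largest named rises, and rose 3.11-fold (adjusted p = 1.65e-05). It kept its call with any 1 set left out and with the trend and robust prior (adjusted p = 0.00104). AT4G05240 (0.691, 0.51, 0.755 and 0.72) rose 4.67-fold, AT5G06560 (0.473, 0.649, 0.546 and 0.864) 4.29-fold, AT4G16270 (0.431, 0.478, 0.852 and 0.75) 4.24-fold and AT3G56220 (0.45, 0.432, 0.725 and 0.646) 3.66-fold. AT1G15260 (0.539, 0.442, 0.611 and 0.465) rose 3.27-fold. These 5 stayed called with any 1 set left out, at adjusted p values no higher than 0.0257. With the trend and robust prior AT4G16270 and AT1G15260 lost their calls (0.204 and 0.208), and AT4G05240, AT5G06560 and AT3G56220 kept them (0.0238, 0.0479 and 0.0114).

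Other large rises lost their call without 1 or more sets. AT5G55720 had ratios of 0.374, 0.404, 0.736 and 1.315 and AT2G20870 of 0.128, 0.445, 0.642 and 1.346, in both cases with set 4 far the highest. They rose 5.10-fold and 4.37-fold on average (adjusted p = 0.0054 and 0.0161), and both were lost without set 1, 3 or 4. Without set 4 their adjusted p was 0.114 and 0.229, and AT2G20870 was also lost without the dye coefficient (0.182). AT4G19380 (0.462, 0.387, 0.926 and 0.559) rose 3.83-fold and was lost without set 1, 3 or 4 (adjusted p up to 0.111). AT4G14090 (0.382, 0.669, 0.613 and 0.801) rose 4.14-fold and was lost without set 2 or 4 (0.0509 and 0.051). AT4G23680 (0.56, 0.274, 0.537 and 0.696) rose 3.29-fold and was lost without set 4 (0.0731). Among the 18 largest named rises, set 4 held the highest value in 8 and set 3 in 6.

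Among the 12 largest named falls, AT1G80580 had ratios of -0.252, -0.486, -0.372 and -0.858 and fell 3.1-fold (adjusted p = 0.000424). AT5G55430 had -0.378, -0.268, -0.286 and -0.473 and fell 2.25-fold (adjusted p = 0.000415). Both stayed called with any 1 set left out and were lost with the trend and robust prior (0.133 and 0.0804). AT4G25780, a smaller fall with a narrow spread, had -0.21, -0.19, -0.19 and -0.239, a 1.61-fold fall (adjusted p = 6.63e-05) that stayed called with any 1 set left out and was lost with that prior (0.0588).

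The other falls did not hold with each set left out in turn. AT1G27020 (-0.714, -0.215, -0.394 and -0.439), AT3G13130 (-0.467, -0.329, -0.392 and -0.374) and AT2G04063 (-0.517, -0.335, -0.246 and -0.294) fell 2.76-fold, 2.46-fold and 2.23-fold. AT5G10970 (-0.26, -0.538, -0.275 and -0.293), AT1G31750 (-0.709, -0.241, -0.253 and -0.154), AT1G12010 (-0.357, -0.181, -0.193 and -0.4) and AT1G58310 (-0.346, -0.086, -0.261 and -0.435) fell 2.19-fold, 2.18-fold, 1.92-fold and 1.92-fold. The adjusted p with 1 set left out reached 0.365 for AT1G27020 and 0.171 for AT3G13130 without set 4. It reached 0.119 for AT2G04063, 0.426 for AT1G31750, 0.341 for AT1G12010 and 0.0836 for AT1G58310 without set 1, and 0.273 for AT5G10970 without set 2. AT3G13130 and AT1G12010 were lost with any 1 set left out, AT1G27020 and AT1G31750 without set 1, 2 or 4, and AT5G10970 without set 1, 2 or 3. AT2G04063 was lost without set 1 or 2 and AT1G58310 without set 1 or 4. The replicate block ended the calls of AT1G27020, AT3G13130, AT1G31750 and AT1G12010 (adjusted p = 0.0892, 0.0713, 0.0641 and 0.117), and AT1G31750 was also lost without the dye coefficient (0.0606). Set 1 held the largest fall in 6 of the 12 genes and set 4 in 4.

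**Figure D3:**
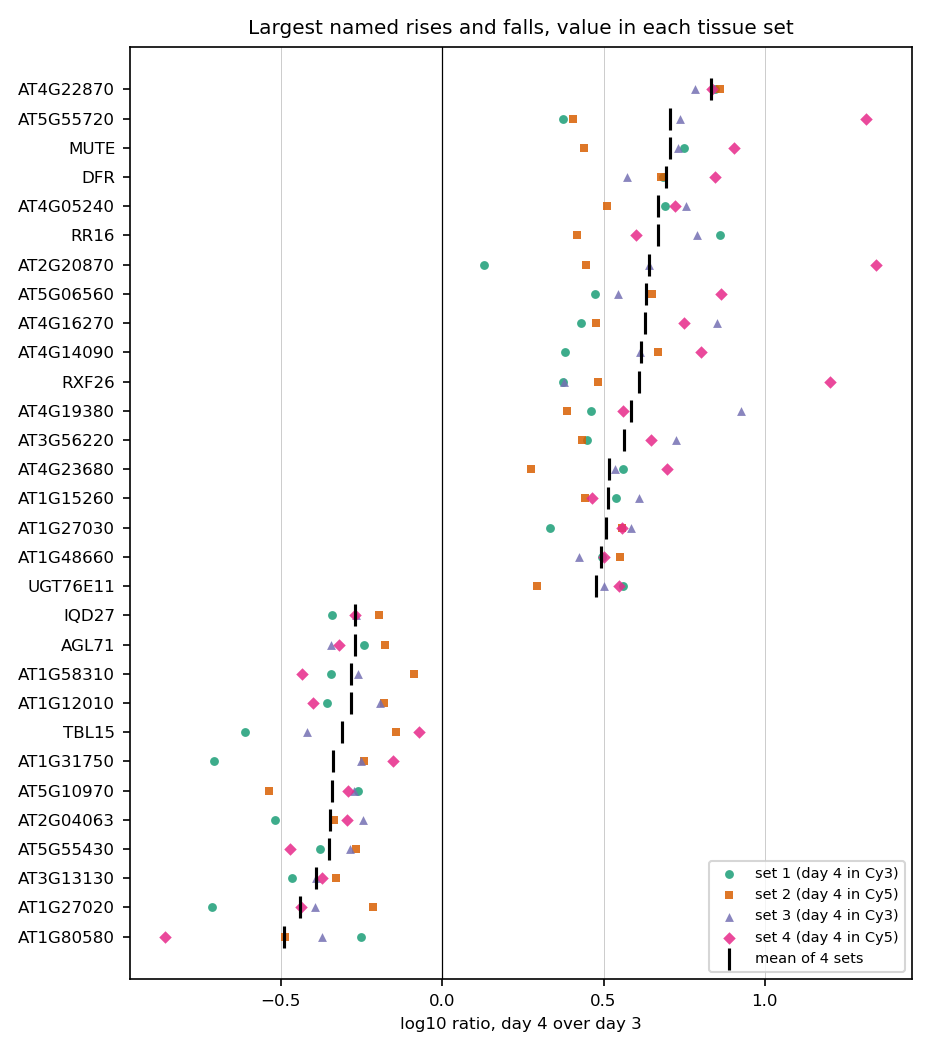
Log10 ratio of day 4 over day 3 in each tissue set for the 18 largest named rises (upper rows) and the 12 largest named falls (lower rows), with the symbol showing the set, its dye assignment in the legend, and a bar at the mean of 4 sets. All values of a gene lie on 1 side of 0, which the rule for naming these genes required. The sets of AT4G22870 and AT1G48660 lie close together, while set 4 of AT5G55720, AT2G20870 and RXF26 lies far to the right.

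Of 9269 pairs of neighbouring genes measured, 4 had both members called, where 1.12% of features with 1 gene name were called. Whether that is more than unrelated pairs would give was not tested. AGL72 and AGL71 fell together, AT1G31750 (-0.339) and AT1G31760 (-0.131) fell together, and AT4G23670 (0.469) and AT4G23680 (0.517) rose together. AT1G31760 and AT4G23670 lost their calls without set 1, 2 or 4 (adjusted p up to 0.295 and 0.362) and with the replicate block (0.0854 and 0.116), and AT4G23670 also without the dye coefficient (0.0502). AT1G27020 (-0.44) and AT1G27030 (0.508) moved in opposite directions. AT1G27030 had ratios of 0.333, 0.557, 0.585 and 0.558, rose 3.22-fold (adjusted p = 0.00523) and was lost without set 1, 2 or 4 (adjusted p = 0.0516, 0.145 and 0.0634).

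Markers of other tissues and of handling were read the same way. None of 13 photosynthesis genes, 2 vascular genes, 4 mitotic genes, 2 DNA replication genes, 21 sugar transporters, 5 touch and wounding genes, 3 heat shock genes, 1 circadian clock gene or 5 commonly used reference genes was called. The photosynthesis median was 0.0603, with 12 of 13 means above 0 and a range of -0.046 to 0.122. RCA, Rubisco activase, had 0.063 and SBPASE, of the Calvin cycle, 0.085 (adjusted p = 0.679 and 0.0566). Sugar transporters had a median of 0.00999 and ran from -0.184 (SWEET11) to 0.258 (SWEET10). Over all 22 lists, 130 genes were measured, of which 12 rose and 4 fell, where 0.981% of all features rose and 0.370% fell. These lists were drawn up with earlier results known. A ratio carries no level, so the labelled tissue cannot be checked for the presence of its markers from these arrays.

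**Figure D4:**
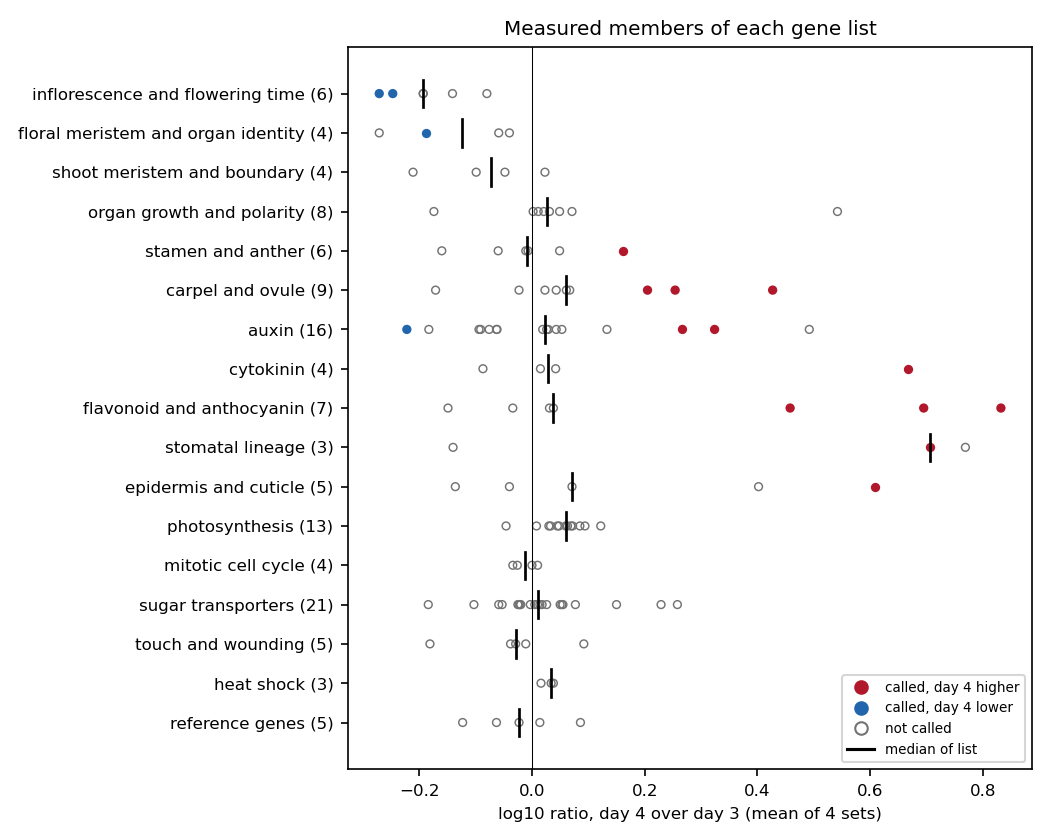
Mean log10 ratio of day 4 over day 3 for every measured member of the gene lists with 3 or more measured members, number measured in brackets. Filled circles passed the test (red higher, blue lower), open circles did not, and the black bar is the median of the list. The inflorescence list lies to the left of 0 throughout, while the photosynthesis, mitotic and sugar transporter lists hold no filled circle.

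To ask which changes differed from the rest of the course, the day 4 over day 3 change was set against the mean of the other 4 intervals in the same fit. The adjacent intervals share day 3 or day 4 RNA of the same set, while the fit took arrays as independent. The SE and adjusted p values of this contrast may therefore be too small. For 75 features the difference passed the test (0.262%), with 58 above (0.203%) and 17 below the other intervals (0.0594%). Gene names were attached to 33. Of these 75, 69 were also called for day 4 over day 3 itself. For DFR the difference was 0.697 ± 0.0956 (SE, adjusted p = 0.0056), for AT4G22870 0.861 ± 0.112 (adjusted p = 0.00465), for AT5MAT 0.431 ± 0.0829 (adjusted p = 0.0447), and for AT4G14090 0.602 ± 0.0983 (adjusted p = 0.0154). These 4 genes had means between -0.028 and 0.027 over the other 4 intervals. MUTE (0.507, adjusted p = 0.0479), YUC6 (0.301, adjusted p = 0.0255) and UGT76E11 (0.299, adjusted p = 0.0479) also passed.

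For RR16, NGA3, GH3.3 and RXF26 the difference did not pass the test (adjusted p = 0.0601, 0.136, 0.27 and 0.496). Nor did it for AGL71 and AGL72, at -0.096 and -0.033 (adjusted p = 0.685 and 0.928). RXF26 and AT5G55720 rose again from day 4 to day 5, by 0.903 and 0.949 on the log10 scale (adjusted p = 0.00076 and 0.000899). This contrast was fragile: 3, 0, 47 and 6 features were left without set 1, 2, 3 and 4, 22 with the replicate block and 2 with the trend and robust prior. Without set 2, where limma called none, 1458 features had an unadjusted p under 0.05. Set against day 1 over day 0 and day 2 over day 1 alone, which share no RNA with day 4 over day 3, 330 features differed (1.15%), 211 above (0.737%) and 119 below (0.416%). All 75 were among them. Both contrasts use the same day 4 over day 3 values and both earlier intervals, so this overlap is no separate support.

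Some genes that changed from day 3 to day 4 had moved the other way on the first day. For day 1 over day 0, 3.32% of features were called, of which 329 rose (1.15%) and 621 fell (2.17%). Of the 281 rises of day 4 over day 3, 11 had fallen then (3.91% of the rises, 1.77% of the earlier falls) and 17 had risen (6.05% and 5.17%). Of the 106 falls, 10 had risen then (9.43% of the falls, 3.04% of the earlier rises) and 16 had fallen (15.1% and 2.58%). For day 2 over day 1, 210 features rose (0.733%) and 119 fell (0.416%). Of the 106 falls 16 had also fallen then (15.1% of the falls, 13.4% of the earlier falls) and 1 had risen, and of the 281 rises 11 had also risen (3.91% and 5.24%) and 0 had fallen.

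Named genes with such a turn included DFR and UFO. AT4G22870 and DFR had changed by -0.501 and -0.371 for day 1 over day 0 (adjusted p = 0.00918 and 0.0233). AT1G33170, AT1G66940, AT2G10940 and AT2G34810 had likewise fallen first, with changes of -0.397 to -0.273, and rose by 0.258 to 0.461 for day 4 over day 3. In the other direction UFO had risen by 0.299 (adjusted p = 0.000814), GIS by 0.109 (adjusted p = 0.0439), AT5G10970 by 0.688 (adjusted p = 2.29e-05) and AT5G55430 by 0.381 (adjusted p = 0.000108). AT4G15765 and AT4G32800 had risen by 0.199 and 0.162 and fell by 0.191 and 0.188 for day 4 over day 3. The day 4 over day 3 calls of AT1G33170, AT1G66940, AT2G10940, AT2G34810, AT4G15765 and AT4G32800 were each lost without 1 or more sets, at adjusted p values that reached 0.407, 0.0731, 0.252, 0.328, 0.0782 and 0.323. The set left out was then set 4, other than for AT4G15765, where it was set 1. AT1G33170, AT2G34810 and AT4G15765 were lost without set 1, 2 or 4, AT1G66940 and AT4G32800 without set 2, 3 or 4, and AT2G10940 with any 1 set left out. With the replicate block AT1G33170, AT2G10940 and AT4G32800 were lost (adjusted p = 0.124, 0.0617 and 0.0976). Without the dye coefficient AT2G10940, AT2G34810 and AT4G32800 were lost (0.0502, 0.065 and 0.441).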

How the data were processed

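Labelled RNA of consecutive days of 1 tissue set shared a two-colour array, per the labels. The values are log10 ratios as deposited by the authors, 1 column per array, with the base read from limits at exactly 2 and -2, a 100-fold ratio. The sources used here do not give the log base, numerator, background correction or normalization. No scanner intensity was used and no dim probe was removed. Arrays give no read depth, and their number limits the precision.

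Of 30741 spots, 547 were left out. Of 30194 probes, 18740 had 1 gene name, 11453 none and 1 several; 18645 matched a RefSeq gene of TAIR10.1 and 95 kept an older name. Probes of 1 gene were averaged (1429 of 17197 genes had several), and features with fewer than 3 values in any interval of 4 arrays were dropped. limma 3.58.1 (R 4.3.3) estimated 5 interval terms and 1 dye term over the 20 arrays together (14 residual degrees of freedom), two-sided, with Benjamini-Hochberg adjustment over 28633 features at 0.05. ± values beside a mean are the SD over 4 sets. The procedure was tested on simulated data.

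The genes named were the 18 largest rises and 12 largest falls with 1 gene name, the same sign in all sets and no limit value, called members of 22 gene lists, up to 3 called members of each of 41 families, and the 4 highest and 4 lowest differences from the other intervals. The comparison and the lists were chosen with earlier results of these data known. After values were seen, 4 list entries whose symbol belongs to another gene were dropped and the REM and NGATHA family was added. Families were matched by symbol and synonym, and some had no match. Many names of the lists matched no measured gene. Measured were 6 of 21 inflorescence, 4 of 21 floral identity, 7 of 50 flavonoid, 16 of 73 auxin and 4 of 53 cytokinin names. For the stomatal, mitotic and vascular lists the numbers were 3 of 18, 4 of 44 and 2 of 31. LDOX was not analysed here, and no sequence was used.

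The series' design states that the 4 sets are biologically independent and that arrays of 1 set share its tissue, so set number pairs arrays; the block is an alternative. Deviations of same-set arrays correlated with those of day 4 over day 3 at -0.078 to 0.112 for intervals sharing no RNA and -0.152 to 0.016 for adjacent ones.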

Additional observations from a re-analysis of the deposited data

Results flagged for a closer look

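In 4 of the 66 called genes named in the text, 1 set stood apart from the other 3 by Dixon's criterion, which chance meets in about 1 of 20 groups. For day 4 over day 3, RXF26 had 1.202 in set 4, AT1G27030 had 0.333 in set 1, AT5G10970 had -0.538 in set 2 and scpl35 had 0.165 in set 2.

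For 17 named genes the log10 change of day 4 over day 3 differed from the mean of the other 4 intervals in limma. Genes were named in part for this same difference or for a large day 4 over day 3 change, so the count follows in part from that rule. The differences were 0.861 for AT4G22870, 0.697 for DFR, 0.602 for AT4G14090, 0.558 for AT1G27030, 0.521 for AT5G06560, 0.52 for AT4G05240, 0.519 for AT3G56220, 0.507 for MUTE, 0.454 for AT4G23680, 0.449 for AT1G48660, 0.431 for AT5MAT, 0.301 for YUC6 and 0.299 for UGT76E11. They were -0.117 for AT4G25780, -0.365 for AT1G80580, -0.373 for AT5G55430 and -0.436 for AT5G10970.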

How the results depend on the processing

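The 387 calls for day 4 over day 3 became 228 with the replicate block, 667 with arrays scaled to 1 spread, 79 with a trend and robust prior, 1 with the 4 arrays alone and 19 with these arrays and a dye term. They ranged from 108 to 337 with 1 set left out. The share of calls that were higher, 72.6%, was 89.5%, 77.5%, 61.1% and 84.3% without sets 1 to 4, and 87.3% with the trend and robust prior. The cause of these moves was not tested. Centring arrays, values at the limits set missing, values required on all 20 arrays, single probes and no dye coefficient gave 289 to 441 calls. The 75 differences from the other 4 intervals became 22 with the block, 2 with the trend and robust prior and 330 against the unshared intervals, and ranged from 0 to 47 with 1 set left out (0 without set 2, with 1458 at an unadjusted p under 0.05). Calls in the lists and families, 22 in all, ranged from 9 to 24 with 1 set left out. No result reversed its direction. Of the 66 called genes named in the text, 51 lost the call with at least 1 set left out, 17 with the block, 56 with the trend and robust prior and 12 without the dye coefficient. Without set 1, 2, 3 and 4, 42, 40, 18 and 46 of them lost it. With the 4 arrays of the interval alone, 65 of the 66 lost it, both with and without a dye term. Signal over background is not known from ratios, so dim probes could not be told apart.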
